A study of Homo sapiens with 36 samples.

Results

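The WNT genes that act at the cell surface were followed while human embryonic stem cells took a forebrain, a neural crest or a melanocyte course. The set was chosen by gene name, with earlier results of these data known. It held 41 symbols for WNT ligands, their receptors, their secreted antagonists and the R-spondins. All 41 were found among the 34687 genes of the authors' processed table. They comprised 14 WNT ligands, 10 Frizzled receptors, 5 coreceptors and other receptors (LRP5, LRP6, ROR1, ROR2 and RYK), 9 secreted antagonists and 3 R-spondins. A gene was tested if its probe stood above background (a detection p-value under 0.05) on 3 arrays or more. By that filter 37 of the 41 were tested, among 22849 genes in all. WNT7A, WNT8B, WNT11 and SFRP5 were not, and WNT11 and SFRP5 were above background on 0 of 36 arrays.

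WNT proteins are secreted lipid-modified ligands that bind a Frizzled receptor together with LRP5 or LRP6, which spares beta-catenin from destruction and lets it activate target genes with TCF and LEF factors. ROR1, ROR2 and RYK receive WNT signals that need no beta-catenin. Secreted frizzled-related proteins (SFRPs, of which FRZB is one) and WIF1 bind WNTs in the extracellular space, DKK1 and DKK2 bind LRP5 and LRP6, and R-spondins keep Frizzled receptors on the membrane. In the early nervous system WNT signalling favours posterior and dorsal fates, including the neural crest, and its antagonists protect the forebrain.

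The RNA came from WA09, an embryonic stem cell line of human origin, grown on mouse feeder cells and differentiated on matrigel, and was measured on Illumina beadchips in 12 groups of 3 arrays. The DSi groups (dual SMAD inhibition, described as a central nervous system course) received 100 nM LDN-193189, an inhibitor of BMP receptors, and 10 µM SB431542, an inhibitor of activin, Nodal and TGF-beta receptors, and were collected on days 3, 6, 8 and 11. The NC groups (neural crest) received both compounds and 3 µM CHIR 99021, which inhibits GSK3 and so activates the beta-catenin pathway downstream of the receptors, on the same days. The BE groups (melanocyte) received all 3 compounds with 25 ng/ml BMP4 and 100 nM EDN3 (endothelin 3), and were collected on days 8 and 11. Thus all conditions shared both SMAD inhibitors, and BE differed from NC by BMP4 and EDN3 together. The day 0 and day 1 groups carry no condition name. Their labels mention LDN-193189 and SB431542 without saying if cells were exposed by day 0.

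Mean signal per array ran from 214.7 to 462.5, and 16055 to 19724 of 47323 probes were above background. For 31 of 36 arrays the most similar array belonged to the same group. The exceptions were all of day 3: DSi replicates 1 and 2 and NC replicates 1, 2 and 3. For DSi day 3 replicate 1 the title is shorter than those of the other DSi arrays by a suffix. No label says whether replicates were separate cultures, so the p-values cover the spread between arrays, possibly a technical one, and the number of arrays limits the precision. The source labels call every group embryonic stem cells. Of the 7 pluripotency markers in the table, 7 were above background on all 3 arrays at day 0. POU5F1 went from 10.23 ± 0.15 (SD, n = 3) at day 0 to 4.43 ± 0.01 at NC day 11, where it was below background. Of the 7, 4 were still above background on all 3 arrays in each day 11 group. LIN28A, 1 of these, stood at 12.22 ± 0.23 at day 0 and 11.87 ± 0.10 at NC day 11. LHX2, of the forebrain and eye field, reached 12.06 ± 0.60 at DSi day 11 and was below background in every NC and BE group. Of 10 forebrain and eye field markers, 9 were above background on all 3 arrays at DSi day 11, and 3 at NC day 11 and at BE day 11. PAX6 was among them in every condition, at 11.30 ± 0.34 in DSi, 8.56 ± 0.46 in NC and 8.30 ± 0.23 in BE. SOX10, of the neural crest, stood at 10.22 ± 0.20 at NC day 11 and was below background at DSi day 11. Levels here and below are normalized log2 signals, in which values near 4.5 to 5 are background, and differences are log2 differences between group means. They are not compared between genes, whose probes differ. In such cultures fewer cells of a type and less RNA per cell cannot be told apart.

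Among the 41 genes, 12 were above background on all 36 arrays: FZD2, FZD3, FZD4, FZD7, FZD8, FZD9, LRP5, ROR1, RYK, SFRP1, SFRP2 and DKK3. That is 6 of 10 Frizzleds, 3 of 5 coreceptors and other receptors, 3 of 9 antagonists, and 0 of 14 ligands and 0 of 3 R-spondins. A further measure of presence, detection on all 3 arrays of at least 1 group, was met by 32 of 41. The widest spans between the lowest and the highest of the 12 group means were 6.30 for DKK1 (day 1 to BE day 11), 6.28 for FRZB (day 0 to DSi day 6), 5.78 for WNT1 (day 1 to NC day 6) and 5.06 for WNT3A (DSi day 3 to NC day 8).

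**Figure D1:**
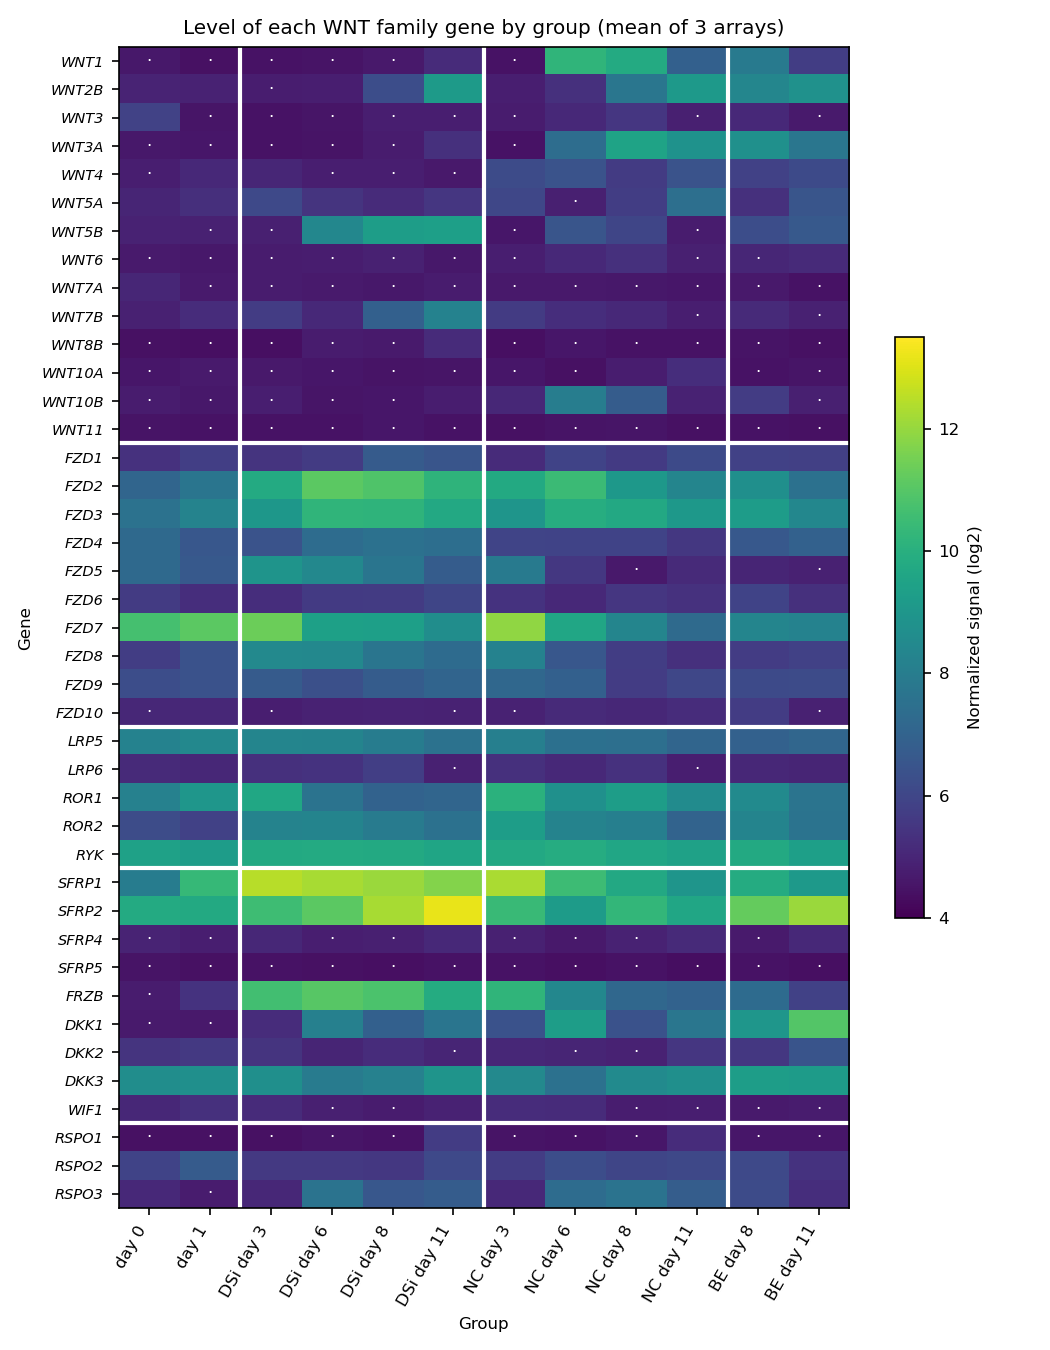
Normalized signal (log2, colour) of all 41 genes in the 12 groups, each cell the mean of 3 arrays; white lines separate the classes of genes and the conditions, and a dot marks a gene above background on 0 of the 3 arrays. The 12 genes above background on all 36 arrays carry no dot in their rows, and WNT11 and SFRP5 carry a dot throughout.

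Against day 0, SFRP1, FRZB and 5 of 10 Frizzled genes rose by DSi day 3, and WNT2B rose by day 11 in all 3 conditions. At day 1, 3 of 37 genes were higher and 1 lower (4.4% of all genes tested differed, 2.42% higher and 1.99% lower; 1 and 2 of the 37 with median scaling over all probes; 1 and 1 without day 0 replicate 1 or day 1 replicate 3). These were SFRP1, ROR1 (0.80, adjusted p = 0.0124) and FZD3 (0.66, adjusted p = 0.0259) upward and WNT3 downward. The ROR1 call was lost without day 0 replicate 1 or 3 or day 1 replicate 2 or 3 (adjusted p of 0.0505 to 0.0698), with the mean of its probes (0.205) and with median scaling over all probes (0.404). The FZD3 call was lost without day 0 replicate 1 or 2 or day 1 replicate 3 (0.0841 to 0.169), with the authors' processed values (0.0706), with no background correction (0.0715) and with median scaling over all probes (0.668). At DSi day 3 the numbers were 12 and 2 (background 16.7%, 8.72% higher and 8% lower). At day 11 they were 15 and 4 in DSi (27.4%, 13.7% and 13.6%), 15 and 5 in NC (29.4%, 15% and 14.4%), and 14 and 5 in BE (28.8%, 14.5% and 14.3%). By class, 3 of 11 ligands, 6 of 10 Frizzleds and 3 of 8 antagonists differed at DSi day 3, and at day 11 the ligands that differed numbered 4 in DSi, 7 in NC and 8 in BE. The median difference over the 37 genes at day 11 was 0.34 in DSi, 0.18 in NC and 0.14 in BE, beside -0.01, -0.02 and -0.02 over all genes. These comparisons share the 3 day 0 arrays. The split of all genes depended on the scaling: with median scaling over all probes 9.73% of the day 1 calls and 29.9% of the DSi day 3 calls were higher, in place of 54.9% and 52.2%. All tests are limma's moderated tests over 36 arrays, adjusted by Benjamini and Hochberg over all genes, and a gene is said to rise, fall or differ only with an adjusted p under 0.05.

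The NC and DSi conditions, which differ by CHIR 99021, differed in 1 of the 37 genes at day 3 and in 13 to 19 from day 6 on. At day 3, 1 gene of 37 was higher in NC and 0 were lower, with 5 and 1 at limma's unadjusted p under 0.05 (0.486% of all genes differed, 0.267% higher and 0.219% lower). At day 6, 5 were higher and 8 lower, 35.1% of the genes beside 5.38% of all (2.67% higher and 2.71% lower). At day 8, 7 were higher and 12 lower, 51.4% beside 6.68% (3.36% and 3.33%), and at day 11, 6 were higher and 12 lower, 48.6% beside 11.1% (5.55% and 5.56%). The classes went different ways. Ligands were higher in NC in 4, 5 and 5 of 11 cases at days 6, 8 and 11 and lower in 1, 2 and 2. Frizzleds were higher in 0 of 10 cases and lower in 3, 7 and 7. Antagonists were higher in 0 of 8 and lower in 3 on each of these days. At limma's unadjusted p under 0.05, 1, 0 and 0 Frizzleds and 1, 0 and 0 antagonists were higher. At day 8 the median difference was 0.69 for ligands, -1.11 for Frizzleds and -0.40 for antagonists, and that over all genes tested was -0.00042. Over the 4 days, 10 of the 37 genes (27%) differed on exactly 3 days, beside 1.76% of all genes; 6 differed on 2 days, 9 on 1 and 12 on 0, shares of 16.2%, 24.3% and 32.4% beside 3.62%, 10.7% and 83.8%. The 10 were WNT1, WNT3A, WNT5B, FZD4, FZD5, FZD8, ROR1, SFRP1, SFRP2 and FRZB. The change of the NC to DSi difference from day 3 to day 11 passed for 15 of the 37 genes, 4 upward and 11 downward, or 40.5% beside 5.43% of all genes (2.89% upward and 2.54% downward; 4 and 6 of the 37 with median scaling over all probes).

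**Figure D2:**
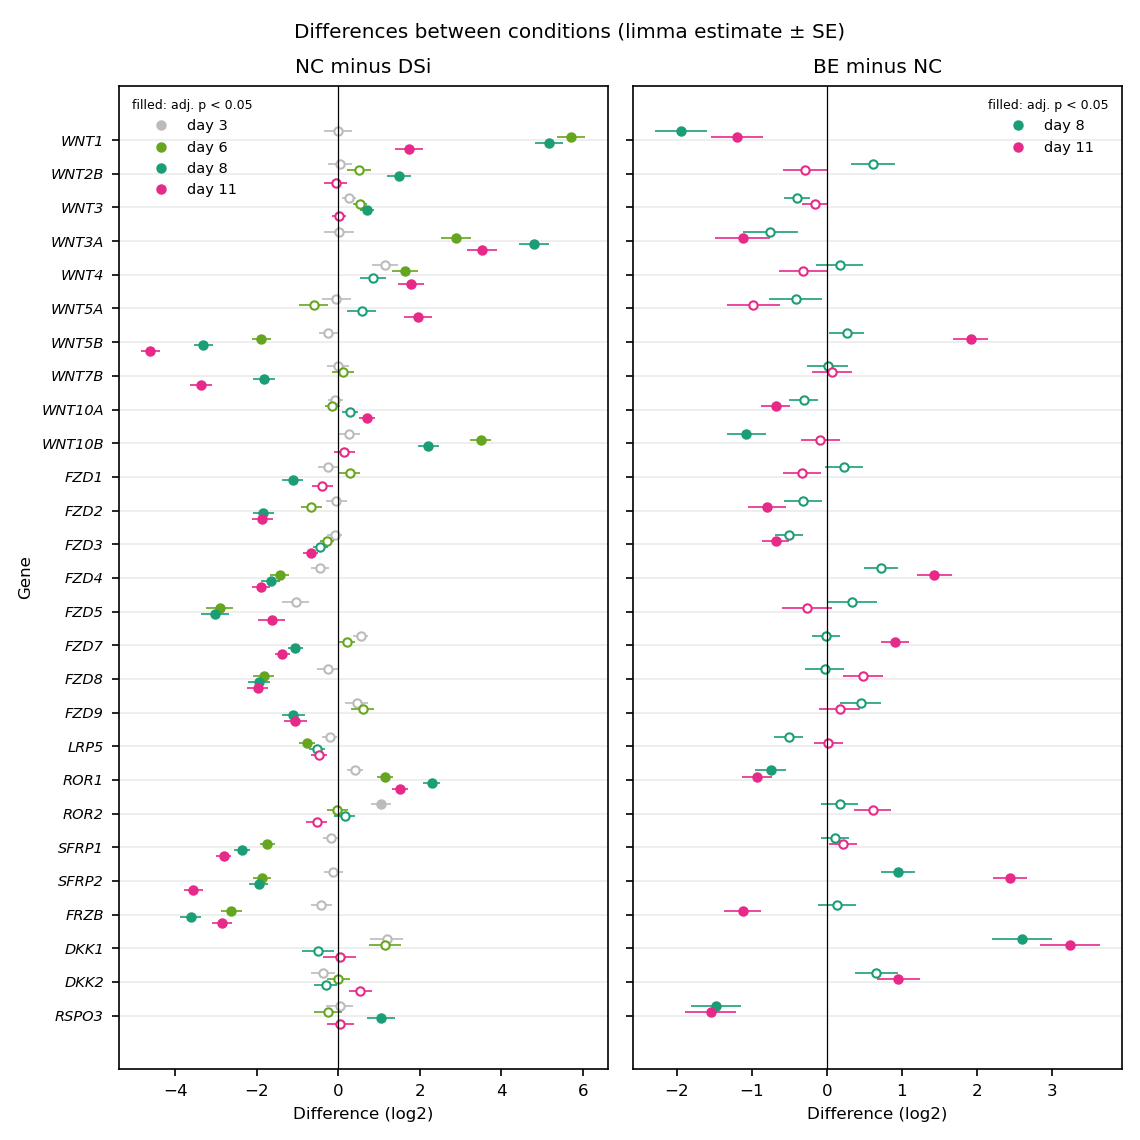
Log2 difference (x axis, limma estimate with its SE as the bar) between NC and DSi at days 3, 6, 8 and 11 (left) and between BE and NC at days 8 and 11 (right), for the 27 genes (y axis) that differed on at least 1 of these days; filled circles have an adjusted p under 0.05, and where a group was below background the estimate is the fitted value, not a bound. On the left the filled circles of the Frizzleds, SFRP1, SFRP2 and FRZB lie below 0 and those of WNT1, WNT3A, WNT10B and WNT4 above it, and on the right DKK1 stands farthest above 0 on both days.

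Between BE and NC, which differ by BMP4 and EDN3, DKK1 was higher and WNT1 and RSPO3 were lower on both days. The RSPO3 call at day 8 and the WNT1 call at day 11 were each lost without 3 of the 6 arrays in turn. The WNT1 call was also lost with the authors' processed values and with the compared groups alone. SFRP2 was higher and ROR1 lower on both days as well, and their calls at day 8 were lost without 3 and 5 of the 6 arrays in turn. At day 8, 2 of 37 were higher in BE than in NC and 4 lower, 16.2% beside 1.85% of all genes (1.25% higher and 0.604% lower). At day 11, 6 were higher and 8 lower, 37.8% beside 8.75% (4.68% and 4.07%). The split was 4 and 3 at day 8 with median scaling, 1 and 4 with median scaling over all probes, and 6 and 3 at day 11 with the latter. The day 11 number fell to 8 without BE day 11 replicate 1 and to 9 without NC day 11 replicate 2, and the day 8 number to 3 without BE day 8 replicate 2, BE day 8 replicate 3 or NC day 8 replicate 3.

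Among 10 feedback targets, which beta-catenin signalling is known to induce, 3, 6, 7 and 9 were higher in NC than in DSi at days 3, 6, 8 and 11 and 0 were lower, also at limma's unadjusted p under 0.05, with medians of 0.58, 1.88, 2.12 and 1.86. These shares of 30%, 60%, 70% and 90% stood beside 0.486%, 5.38%, 6.68% and 11.1% of all genes that differed. AXIN2, which restrains the pathway, went from 8.23 ± 0.14 in DSi to 11.68 ± 0.10 in NC at day 8 (3.45, SE 0.17, adjusted p = 7.34e-20). The transcription factor gene SP5 was already higher at day 3 (3.12, SE 0.30, adjusted p = 4.13e-09, DSi above background on 2 of 3 arrays). So at day 3, when 1 of the 37 genes differed, AXIN2, SP5 and the receptor gene TNFRSF19 (1.46, SE 0.29) did. Between BE and NC 0 of these 10 rose (2 at an unadjusted p under 0.05) and 2 fell at day 8, SP5 by 2.41 (SE 0.30) and NKD1 by 1.88 (SE 0.24), and 1 rose and 1 fell at day 11. On each day that was 20%, beside 1.85% of all genes at day 8 and 8.75% at day 11.

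Among 18 genes of WNT secretion and extracellular cofactors, 1 or more moved each way in NC against DSi on every day (1 higher and 1 lower at day 3, 1 and 3 at day 6, 4 and 3 at days 8 and 11). Their shares were 11.1%, 22.2%, 38.9% and 38.9% at days 3, 6, 8 and 11. Of all genes 0.486%, 5.38%, 6.68% and 11.1% differed on these days. NOTUM, RNF43 and ZNRF3 counted both in this list and among the feedback targets. WLS, the carrier that brings WNT proteins to the cell surface, was higher in NC by 2.01 (SE 0.40, adjusted p = 0.00382) at day 3, 1.73 at day 6 and 1.25 at day 8, and stood at 0.80 (adjusted p = 0.243) at day 11. GPC3, a membrane proteoglycan that binds WNTs, was lower by 1.19 at day 3 and 3.88 (SE 0.25, adjusted p = 5.39e-17) at day 11, and BE was 2.41 above NC at day 11 (SE 0.25). Of 17 intracellular transducers at most 3 differed between NC and DSi on any of the 4 days, among them the corepressor genes TLE1, higher by 2.25 (SE 0.17) at day 8, and TLE4, lower by 1.76 (SE 0.20) at day 11. The transducers that differed made up 5.88%, 11.8%, 11.8% and 17.6% at days 3, 6, 8 and 11. Of 8 planar cell polarity genes 0, 2, 1 and 1 differed on these days (0%, 25%, 12.5% and 12.5%). WNT2, WNT8A, WNT9A, WNT9B and WNT16, the 5 WNT ligand genes looked up outside the set, did not pass the filter on dim probes.

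The ligand genes fell into groups by condition: WNT1, WNT3A, WNT10B and WNT4 were higher in NC than in DSi, WNT5B and WNT7B lower, and WNT2B rose in all 3 conditions. WNT1, a ligand of the dorsal midline and the midbrain boundary that drives growth of crest precursors, and WNT3A, the ligand most used to activate beta-catenin, were below background on all arrays up to day 3. Promoter windows are shown for both, as the ligands with the widest spans between group means: the 250 bases before the gene start, from RefSeq (GRCh38.p14), 5′ to 3′ on the gene's strand. Capitals mark GGCGCC, a GC element to which BMP SMAD proteins bind. Searched on both strands in windows of 250 bases before to 50 after the start, it lay in 8 of the 28 genes of the set with a window (28.6%) and in 19.0% of 27305 windows. The core TCF/LEF site CTTTGA and the TATA box TATAAA were searched likewise and lay in neither window; such a match or its absence is a description of these letters only.
WNT1 promoter, chr12:48978072-48978321, plus strand: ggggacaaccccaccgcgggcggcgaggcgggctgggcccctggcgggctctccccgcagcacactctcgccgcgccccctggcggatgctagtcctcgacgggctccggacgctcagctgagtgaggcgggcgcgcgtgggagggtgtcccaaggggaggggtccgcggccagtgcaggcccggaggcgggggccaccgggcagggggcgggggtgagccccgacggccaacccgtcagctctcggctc
WNT3A promoter, chr1:228006748-228006997, plus strand: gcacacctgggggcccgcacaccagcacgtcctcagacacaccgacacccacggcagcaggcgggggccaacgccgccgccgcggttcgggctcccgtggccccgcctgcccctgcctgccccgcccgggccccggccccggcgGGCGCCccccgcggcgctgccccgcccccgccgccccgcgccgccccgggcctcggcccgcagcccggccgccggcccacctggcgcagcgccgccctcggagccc

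At day 6 WNT1 read 9.73, 10.17 and 10.75 on the NC arrays and 4.52, 4.48 and 4.51 on the DSi arrays, none of which was above background. NC was therefore at least 32.8-fold higher (adjusted p = 7.45e-17). At day 8 the NC arrays read 9.77, 9.64 and 10.02 against 4.72, 4.69 and 4.50 in DSi, at least 25.7-fold (adjusted p = 9.55e-16). All NC arrays of these days lay above all DSi arrays. At day 11 WNT1 read 7.65, 6.66 and 6.42 in NC, while DSi replicate 3 alone was above background at 6.51 beside 4.65 and 4.36. The groups then overlapped, with a difference of 1.74 (SE 0.35, adjusted p = 0.000237).

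WNT1 was lower in BE than in NC: the BE arrays read 7.77, 7.44 and 8.40 at day 8, all below the NC arrays (-1.94, SE 0.35, adjusted p = 0.000335). At day 11 they read 5.47, 5.23 and 6.45 and overlapped with NC (-1.20, SE 0.35, adjusted p = 0.0197). That call was lost without NC day 11 replicate 1 (-0.83, adjusted p = 0.223), without BE replicate 1 (0.0929) and without BE replicate 2 (0.161), with the authors' processed values (0.0713) and with the compared groups alone (0.0529).

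On the NC arrays WNT3A read 7.06, 7.02 and 8.05 at day 6, 9.61, 9.08 and 9.85 at day 8, and 8.78, 8.61 and 9.16 at day 11. On the DSi arrays it was below background at days 6 and 8, and at day 11 read 4.45, 4.60 and 6.94, of which only replicate 3 was above background. NC was at least 4.59-fold higher at day 6 (adjusted p = 1.66e-07) and at least 20.9-fold at day 8 (adjusted p = 5.93e-14), and higher by 3.52 at day 11 (SE 0.37, adjusted p = 2.87e-10). No NC array overlapped with a DSi array on these days. In BE at day 11 the arrays read 7.49, 7.24 and 8.47, all below NC (-1.12, SE 0.37, adjusted p = 0.0459). That call was lost without any of the 3 NC arrays, BE replicate 1 or BE replicate 2, with adjusted p of 0.0649 to 0.262, and under 4 other settings (0.0583 to 0.139).

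WNT10B, another activator of beta-catenin, was higher in NC than in DSi at days 6 and 8. Its NC arrays read 5.21, 4.76 and 5.21 at day 3, then 7.81, 7.59 and 8.67 at day 6, 6.69, 6.59 and 7.04 at day 8, and 4.88, 4.68 and 5.19 at day 11. All DSi arrays of days 6 and 8 were below background, so that NC was at least 7.19-fold higher at day 6 (adjusted p = 4.96e-14) and at least 3.13-fold at day 8. At day 8 BE was lower than NC by 1.07 (SE 0.26, adjusted p = 0.0135, BE above background on 2 of 3 arrays), and by 0.72 with an adjusted p of 0.281 without BE day 8 replicate 2. The call was also lost without NC day 8 replicate 3 (0.106), with median scaling (0.0884) and with the compared groups alone (0.0747).

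WNT4, which acts in kidney and gonad as well as in neural tissue, was above background on all 3 arrays of every NC and BE group and on at most 1 array of every DSi group. At day 6 NC read 6.11, 6.70 and 6.47 and DSi 4.69, 4.99 and 4.67, at least 2.38-fold (adjusted p = 0.000378). At day 11 NC read 7.07, 5.35 and 6.89 and DSi 4.57, 4.46 and 4.97, at least 2.43-fold (adjusted p = 3.87e-05). The groups of both days did not overlap. WNT5A, a ligand of ROR2 that can signal without beta-catenin, differed at day 11, where NC read 6.89, 8.03 and 7.50 and DSi 4.63, 5.78 and 6.14 (1.95, SE 0.35, adjusted p = 4.91e-05, DSi above background on 2 of 3 arrays). Between BE (6.20, 6.96 and 6.32) and NC at day 11 the difference was -0.98 with an adjusted p of 0.0786, and 0.0403 with the replicate number as a block. WNT10A was at least 1.05-fold higher in NC than in DSi at day 11 (adjusted p = 0.0084), on 2 detected NC arrays, a call lost without NC replicate 2 (adjusted p = 0.146).

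WNT5B, a close relative of WNT5A, went the other way. In DSi it read 8.34, 8.16 and 8.66 at day 6, 9.41, 9.09 and 9.35 at day 8, and 9.39, 9.23 and 9.42 at day 11. In NC it read 6.12, 6.62 and 6.75 at day 6, 6.49, 5.58 and 5.83 at day 8, and 4.71, 4.72 and 4.77 at day 11, where it was below background. NC was lower by 1.89 at day 6 (SE 0.23, adjusted p = 7.67e-08), by 3.32 at day 8 (SE 0.23, adjusted p = 4.28e-15) and at least 18.6-fold at day 11 (adjusted p = 5.81e-20). The groups stood apart on all 3 days. BE at day 11 read 6.60, 6.58 and 6.78, at least 2.87-fold above NC (adjusted p = 1.99e-08).

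WNT7B, a ligand of neural and vascular development, read 5.12, 4.67 and 5.55 in DSi at day 6 and 8.21, 8.03 and 8.35 at day 11, while NC at day 11 read 4.91, 4.76 and 4.78, below background. NC was at least 8.37-fold lower (adjusted p = 1.03e-13), with no overlap. A dimmer second probe of WNT7B gave -1.07 at day 11. WNT2B, which marks the dorsal midline and the eye margin, went from 5.0, 4.61 and 5.25 at day 0 to 8.60, 9.30 and 9.64 at DSi day 11, 9.07, 8.91 and 9.36 at NC day 11 and 8.83, 8.81 and 8.81 at BE day 11. The differences from day 0 were 4.23, 4.16 and 3.87 (SE 0.29 each; the largest adjusted p was 5.8e-15; day 0 above background on 1 of 3 arrays). At day 8 NC was 1.50 above DSi (SE 0.29, adjusted p = 0.000294). A second probe near background gave 0.48, 0.21 and 0.01 against day 0. WNT3, in contrast, read 5.89, 6.00 and 5.77 at day 0 and was below background at day 1 (at least 1.52-fold lower, adjusted p = 3.66e-07). It was above background again on all 3 arrays at NC day 8, at 5.55, 5.62 and 5.31. WNT6 was above background on 5 arrays in all, WNT7A on 1, and WNT8B on DSi day 11 replicate 3 alone, at 6.12. The group means of these 3 and of WNT11 lay between 4.38 and 5.33, and those of WNT10A between 4.44 and 5.23.

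Against day 0 at day 11, WNT5B was higher by 4.42 in DSi (SE 0.23, adjusted p = 4.89e-20) and by 1.73 in BE (SE 0.23, adjusted p = 5.2e-08), with day 0 above background on 1 of 3 arrays. WNT7B, detected on 1 day 0 array as well, was higher by 3.32 in DSi (SE 0.27, adjusted p = 6.74e-14), and in NC and BE it was below background. WNT3A was at least 12.9-fold higher in NC and at least 5.94-fold in BE, and WNT1 at least 3.36-fold in NC. WNT5A was higher by 2.48 in NC (SE 0.35, adjusted p = 1.68e-07) and by 1.50 in BE (SE 0.35, adjusted p = 0.000687), again against 1 detected array at day 0, and WNT4 at least 1.94-fold in BE.

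**Figure D3:**
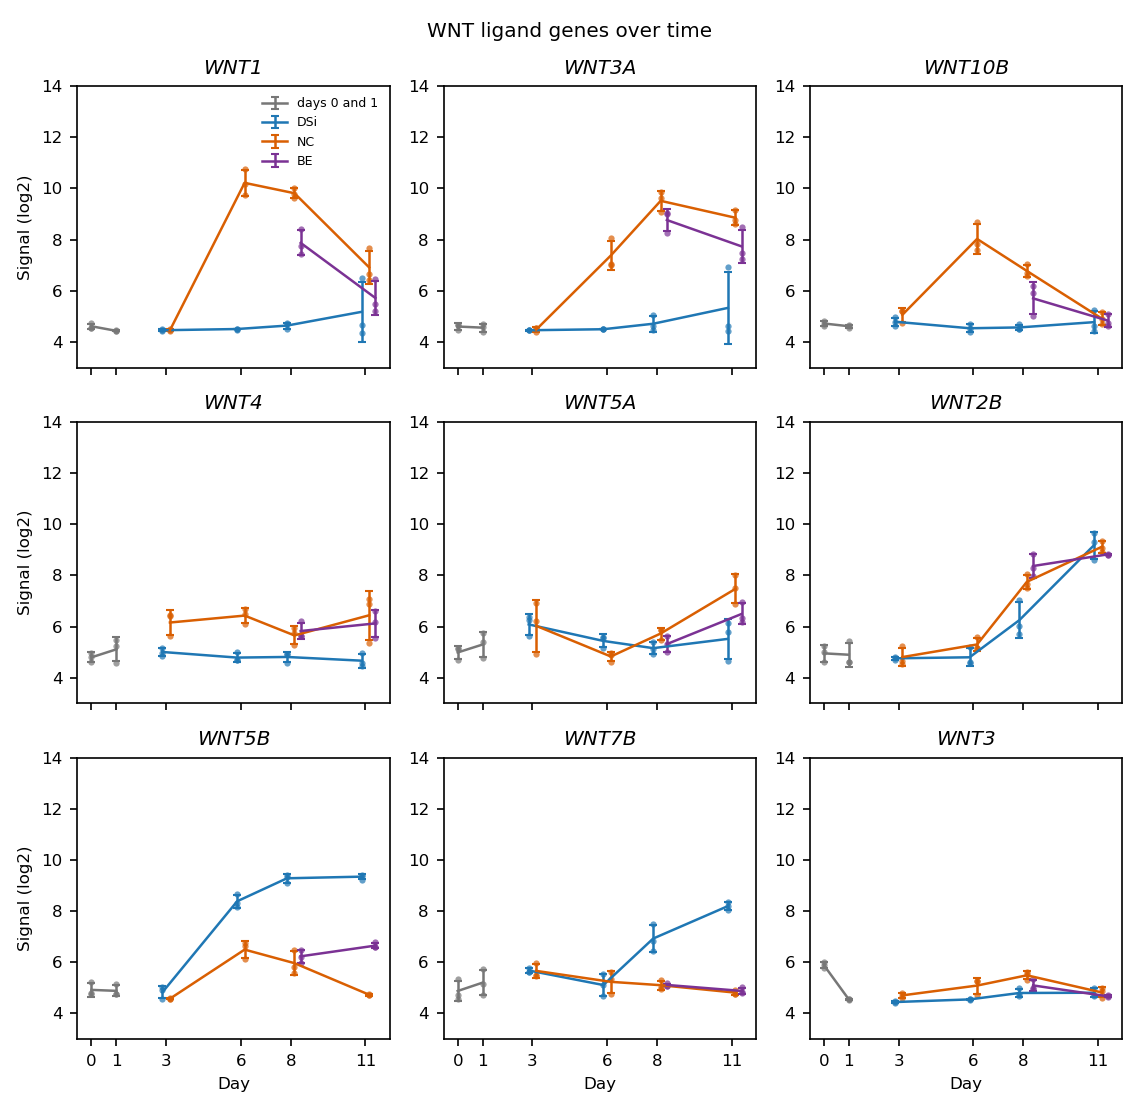
Normalized signal (log2, y axis) of 9 WNT ligand genes by day (x axis); points are arrays, lines join group means, and bars are the SD of 3 arrays, with days 0 and 1 in grey, DSi in blue, NC in orange and BE in purple. WNT1, WNT3A, WNT10B and WNT4 stand higher in NC than in DSi at day 6, WNT5B and WNT7B stand higher in DSi at day 11, and WNT2B rises in all 3 conditions.

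Among the Frizzled receptors, several rose by DSi day 3 and were then lower in NC than in DSi. Between NC and DSi 7 of 10 were lower at day 11, FZD2, FZD3, FZD4, FZD5, FZD7, FZD8 and FZD9. FZD5, a receptor of the forebrain and eye field, went from 7.12, 7.39 and 7.25 at day 0 to 9.09, 8.51 and 9.12 at DSi day 3 (1.65, SE 0.33, adjusted p = 0.000222). At day 8 DSi read 8.06, 7.70 and 7.29 and NC 4.66, 4.57 and 4.73, below background, so that NC was at least 5.86-fold lower (adjusted p = 2.34e-09). At day 11 DSi replicate 1 stood at 8.26 and the other DSi arrays at 6.06 and 5.96, all above the NC arrays (5.23, 5.15 and 5.0). The difference of -1.63 (SE 0.33, adjusted p = 0.000335) was -0.89 (adjusted p = 0.0328) without DSi replicate 1.

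FZD8, which is close in sequence to FZD5, read 5.96, 5.47 and 5.74 at day 0 and 8.29, 8.66 and 8.44 at DSi day 3 (2.74, SE 0.26, adjusted p = 2.87e-11). At day 6 DSi read 8.84, 8.68 and 7.75 and NC 6.60, 6.61 and 6.55, and at day 11 DSi read 7.65, 7.64 and 6.64 and NC 5.27, 5.44 and 5.29. NC was lower by 1.84, 1.95 and 1.98 at days 6, 8 and 11 (SE 0.26 each; the largest adjusted p was 2.29e-06), with no overlap on any of these days. FZD4, also the receptor of norrin in the eye, read 7.20, 7.57 and 7.52 in DSi, 5.30, 5.57 and 5.73 in NC and 6.82, 6.83 and 7.26 in BE at day 11. NC was lower than DSi by 1.89 (SE 0.23, adjusted p = 1.37e-08) and BE higher than NC by 1.43 (SE 0.23, adjusted p = 7.18e-06). NC stood apart from both.

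FZD2 read 7.06, 7.11 and 7.15 at day 0 and 11.29, 11.14 and 10.95 at DSi day 6. At day 8 it read 10.85, 10.95 and 10.91 in DSi and 9.12, 8.87 and 9.19 in NC (-1.84, SE 0.25, adjusted p = 4.95e-07), and at day 11 the difference was -1.87. The groups were clear of each other. FZD7, a receptor abundant in pluripotent cells, fell between day 0 and day 11 in every condition, from 10.62, 10.47 and 11.00 at day 0 to 8.51, 8.85 and 8.63 in DSi, 6.96, 7.56 and 7.35 in NC and 8.26, 8.29 and 8.06 in BE at day 11. The falls from day 0 were by 2.03, 3.40 and 2.49 (SE 0.19 each; the largest adjusted p was 2.59e-12). At day 11 NC was lower than DSi (-1.37, SE 0.19) and BE higher than NC (0.91, SE 0.19). A dimmer second FZD7 probe gave -0.74 and 0.14 for these. FZD3, which serves axon guidance and planar polarity, was 0.67 lower in NC than in DSi at day 11 (SE 0.18, adjusted p = 0.00894), and FZD9 was lower by 1.05 (SE 0.28, adjusted p = 0.00636; 0.0854 without NC replicate 3). FZD1, with group means from 5.17 to 6.73, was lower at day 8 by 1.12 (SE 0.25, adjusted p = 0.00207). Between BE and NC at day 11, 2 of 10 Frizzleds were higher (FZD4 and FZD7) and 2 lower, 40% beside 8.75% of all genes. The lower ones were FZD2 (-0.79) and FZD3 (-0.68). Both calls were lost without single arrays, with adjusted p of 0.0527 to 0.337 for FZD2 and 0.0621 to 0.1 for FZD3. For FZD6 and FZD10 0 of 12 comparisons passed (1 each at limma's unadjusted p under 0.05), and their group means lay between 5.08 and 5.98 and between 4.81 and 5.67. Against day 0, FZD2 was higher by 2.71 at DSi day 3 and 3.09 at DSi day 11 (SE 0.25), and FZD3 by 1.44 and 2.14 (SE 0.18). FZD5 was lower than at day 0 by 2.13 at NC day 11 (SE 0.33, adjusted p = 1.36e-06, NC above background on 2 of 3 arrays) and at least 4.38-fold lower at BE day 11, and FZD4 was lower by 1.71 at NC day 11 (SE 0.23).

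Among the coreceptors and other receptors, ROR1, a receptor for WNT5A, was higher in NC than in DSi on 3 days. At day 8 it read 9.33, 9.45 and 9.08 in NC, 6.80, 6.98 and 7.22 in DSi and 8.49, 8.71 and 8.41 in BE. NC was above DSi by 1.15, 2.29 and 1.51 at days 6, 8 and 11 (SE 0.20 each; the largest adjusted p was 0.000101), with no overlap. BE was below NC by 0.75 at day 8 (adjusted p = 0.0369) and 0.93 at day 11 (adjusted p = 0.00108). The day 8 call was lost without NC replicate 1 or 2 or any BE array (0.0536 to 0.218), with the authors' processed values (0.0764), with no detection filter (0.0566) and with the mean of the probes (-0.21, adjusted p = 0.809). The day 11 call was lost with the mean of the probes (-0.32, adjusted p = 0.348) and with median scaling over all probes (0.0669). A dim second ROR1 probe, with a mean of 5.06, did not follow: it gave -0.09, -0.19 and -0.09 for NC against DSi and 0.33 and 0.28 for BE against NC. ROR2 was the gene higher in NC at day 3, with 9.41, 9.13 and 9.29 against 8.06, 7.91 and 8.74 (1.04, SE 0.25, adjusted p = 0.03); the call was lost without DSi replicate 1 or 2 or NC replicate 1 or 3, with adjusted p of 0.118 to 0.246, with the compared groups alone (0.0599) and with median scaling over all probes (0.687). ROR2 was higher than at day 0 by 2.03 at DSi day 3 (SE 0.25, adjusted p = 1.21e-08) and 1.43 at BE day 11, and ROR1 by 1.48 at DSi day 3 (SE 0.20). LRP5 was lower in NC than in DSi by 0.76 at day 6 (adjusted p = 0.00998, 0.0946 without DSi day 6 replicate 2 and 0.0506 without NC day 6 replicate 3). It fell from day 0 to day 11 in DSi, NC and BE by 0.61, 1.09 and 1.07 (SE 0.20 each; the adjusted p in DSi was 0.0146, and 0.0518 without day 0 replicate 1 and 0.0779 without DSi day 11 replicate 1). For LRP6, with group means from 4.79 to 5.74, and for RYK, with group means from 9.25 to 9.87, 0 of 12 comparisons passed, and 0 and 1 at limma's unadjusted p under 0.05.

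**Figure D4:**
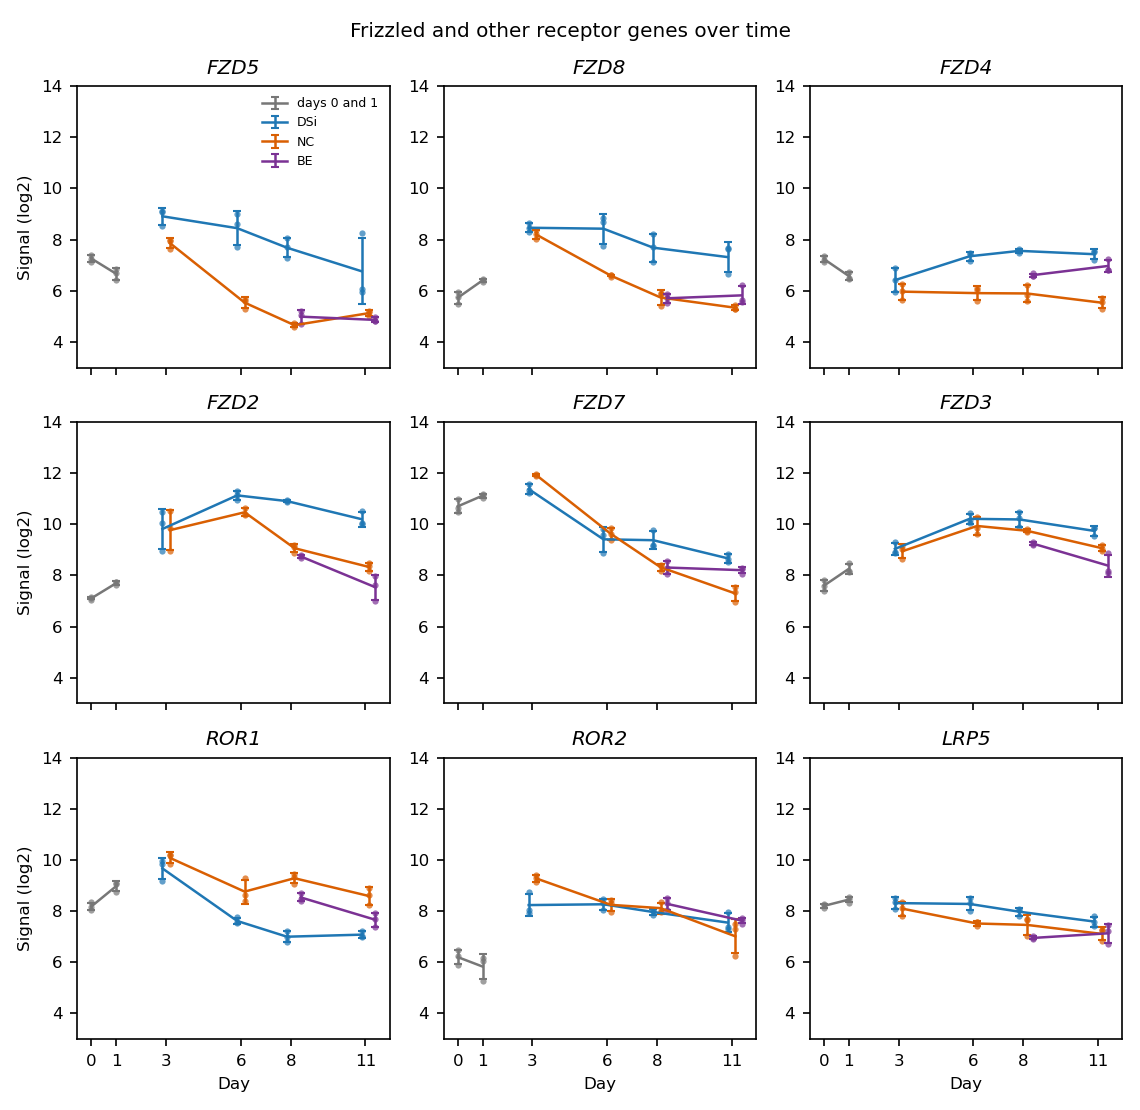
Normalized signal (log2, y axis) of 6 Frizzled genes, ROR1, ROR2 and LRP5 by day (x axis); points are arrays, lines join group means, and bars are the SD of 3 arrays, with days 0 and 1 in grey, DSi in blue, NC in orange and BE in purple. FZD5 and FZD8 stand higher in DSi than in NC from day 6 on, FZD7 is lower at day 11 than at day 0 in all 3 conditions, and ROR1 stands higher in NC than in DSi from day 6 on.

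The secreted antagonists SFRP1, SFRP2 and FRZB were higher in DSi than in NC from day 6, and DKK1 was highest in BE. FRZB, SFRP2 and DKK1 showed the widest contrasts between conditions, and their promoter windows are given from the same source, with capitals for TCAAAG and CTTTGA (the TCF/LEF site on either strand) and TATAAA. The TCF/LEF letters lay in 1 of 28 windows of the set (3.6%), that of DKK1, at positions -149 and -95 from the gene start, and in 13.1% of all windows. TATAAA lay in 2 of 28 (7.1%), FZD8 at -29 and DKK1 at -30, and in 12.0% of all windows.
FRZB promoter, chr2:182866638-182866887, minus strand: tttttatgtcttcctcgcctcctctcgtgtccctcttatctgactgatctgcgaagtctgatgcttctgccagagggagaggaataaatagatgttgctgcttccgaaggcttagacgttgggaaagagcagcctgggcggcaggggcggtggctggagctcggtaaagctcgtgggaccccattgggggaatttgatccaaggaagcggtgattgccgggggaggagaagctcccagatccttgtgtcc
SFRP2 promoter, chr4:153789084-153789333, minus strand: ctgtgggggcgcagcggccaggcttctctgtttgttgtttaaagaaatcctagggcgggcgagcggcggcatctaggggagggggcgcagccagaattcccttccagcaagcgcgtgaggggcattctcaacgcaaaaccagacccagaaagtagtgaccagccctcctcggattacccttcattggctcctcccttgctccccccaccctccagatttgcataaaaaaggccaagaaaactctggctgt
DKK1 promoter, chr10:52314031-52314280, plus strand: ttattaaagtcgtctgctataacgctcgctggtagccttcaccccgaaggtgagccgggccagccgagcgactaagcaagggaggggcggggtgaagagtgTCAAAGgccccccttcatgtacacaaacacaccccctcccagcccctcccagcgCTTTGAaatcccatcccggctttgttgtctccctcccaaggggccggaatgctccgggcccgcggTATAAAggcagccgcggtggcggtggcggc

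FRZB was below background at day 0 (4.75, 4.66 and 4.81) and read 10.95, 10.42 and 10.48 at DSi day 3, at least 43.8-fold higher (adjusted p = 1.63e-22). The NC arrays of day 3, at 10.18, 10.25 and 10.16, were close behind (-0.42 against DSi, not past the threshold). From there the conditions parted: at day 8 DSi read 11.10, 10.90 and 10.37 and NC 7.19, 6.83 and 7.48. NC was lower by 2.62, 3.62 and 2.86 at days 6, 8 and 11 (SE 0.25 each; the largest adjusted p was 1.24e-10). At day 11 BE read 6.36, 5.60 and 5.59, below all NC arrays (-1.12, SE 0.25, adjusted p = 0.00154). That call was lost with the authors' processed values (-0.58, adjusted p = 0.0958), with no background correction (-0.58, 0.0718) and with median scaling over all probes (0.0515).

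SFRP1 rose within a day, from 7.75, 7.57 and 8.68 at day 0 to 10.37, 9.91 and 10.82 at day 1 (2.36, SE 0.19, adjusted p = 1.96e-12), and reached 12.56, 12.55 and 12.35 at DSi day 3. At day 11 it read 11.88, 11.97 and 11.41 in DSi, 8.79, 9.10 and 8.93 in NC and 9.02, 9.36 and 9.08 in BE. NC was lower than DSi by 1.74, 2.36 and 2.81 at days 6, 8 and 11 (SE 0.19 each; the largest adjusted p was 4.13e-09). The NC and DSi arrays did not overlap on these days, whereas the BE and NC arrays of day 11 did (0.21, not past the threshold).

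SFRP2 was lower in NC than in DSi by 1.87 at day 6 and 1.96 at day 8 (SE 0.23 each). It rose in DSi to 13.47, 12.98 and 13.14 at day 11, from 9.83, 9.61 and 10.02 at day 0 (3.38, SE 0.23, adjusted p = 1.29e-16). In NC at day 11 it read 10.14, 9.39 and 9.39, lower than DSi by 3.56 (SE 0.23, adjusted p = 4.96e-17), and overlapped with day 0. BE came between, with 12.23, 11.50 and 12.52 at day 11, above NC by 2.44 (SE 0.23, adjusted p = 1.19e-11). At day 8 BE was above NC by 0.95 (adjusted p = 0.0116), which did not pass without NC day 8 replicate 3 (0.103), BE day 8 replicate 1 (0.0629) or BE day 8 replicate 3 (0.0635), or with median scaling over all probes (0.227).

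DKK1, a blocker of LRP5 and LRP6 that is itself a WNT target and needed for the head, was below background at days 0 and 1. It read 7.35, 8.11 and 8.95 at DSi day 6 and 9.40, 8.98 and 9.45 at NC day 6. At day 8 BE read 9.29, 9.17 and 8.54 and NC 6.81, 6.30 and 6.09, and at day 11 BE read 10.88, 11.35 and 10.66, NC 7.73, 8.01 and 7.44, and DSi 6.17, 8.11 and 8.80. All BE arrays stood above all NC and DSi arrays of the same day. BE was above NC by 2.60 at day 8 (SE 0.40, adjusted p = 2.71e-05) and by 3.24, 9.42-fold, at day 11 (SE 0.40, adjusted p = 3.09e-08). Against day 0, BE day 11 was at least 55.7-fold higher (adjusted p = 2.58e-17). A dim second DKK1 probe gave 0.20 and 1.37 for BE against NC. DKK1 was at least 5.79-fold higher at DSi day 11 and at least 5.92-fold at NC day 11 than at day 0. Between NC and DSi 0 of 4 days passed for DKK1, and NC was higher on 2 of them at limma's unadjusted p under 0.05.

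DKK2, a relative that acts on the same coreceptors, read 6.72, 6.17 and 6.49 in BE and 5.91, 5.14 and 5.48 in NC at day 11 (0.95, SE 0.28, adjusted p = 0.0247), a call lost without BE replicate 1 (0.122), NC replicate 2 (0.176), NC replicate 3 (0.0695) or BE replicate 3 (0.0684), with median scaling (0.0717) and with the compared groups alone (0.0654). The dimmer second DKK2 probe, with a mean of 4.87, gave 1.56 for BE against NC at day 11. DKK3, a relative that does not share the coreceptor binding of DKK1, had group means between 7.53 and 9.30 and 0 of 12 comparisons past the threshold, with 3 at limma's unadjusted p under 0.05. SFRP4 and WIF1 passed in 0 of 12 comparisons, also at limma's unadjusted p, with group means of 4.64 to 5.12 and 4.68 to 5.32, and SFRP5 was below background on all 36 arrays.

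**Figure D5:**
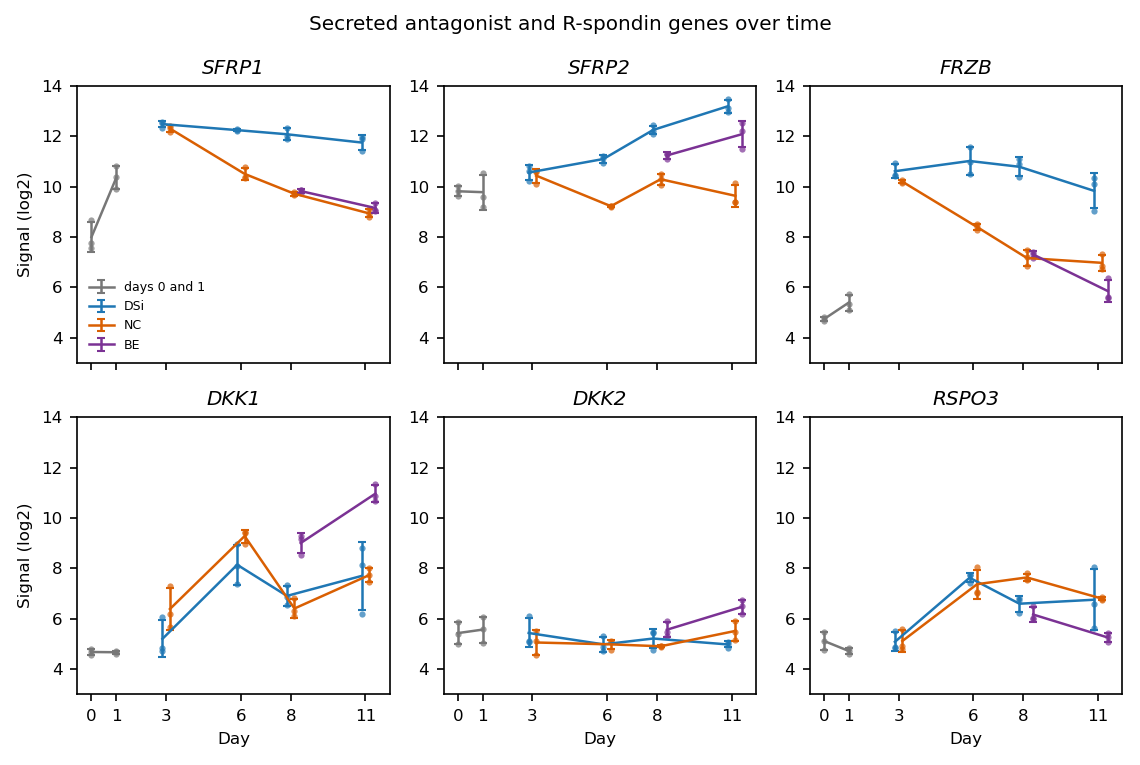
Normalized signal (log2, y axis) of SFRP1, SFRP2, FRZB, DKK1, DKK2 and RSPO3 by day (x axis); points are arrays, lines join group means, and bars are the SD of 3 arrays, with days 0 and 1 in grey, DSi in blue, NC in orange and BE in purple. SFRP1, SFRP2 and FRZB lie higher in DSi than in NC from day 6 on, and DKK1 lies highest in BE.

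Of the R-spondins, RSPO3, which strengthens WNT signals, was lower in BE than in NC. At day 8 NC read 7.57, 7.54 and 7.80, BE 6.49, 6.02 and 5.97 and DSi 6.22, 6.81 and 6.73. BE was lower than NC by 1.47 at day 8 (SE 0.34, adjusted p = 0.0076) and by 1.55 at day 11 (SE 0.34, adjusted p = 0.000996, BE above background on 2 of 3 arrays), with no overlap. The day 8 call had an adjusted p of 0.0503 to 0.0553 without NC replicate 3, BE replicate 2 or BE replicate 3. NC was above DSi by 1.04 at day 8 with an adjusted p of 0.0497, and leaving out any of the 6 arrays ended that call. RSPO1 read 4.61, 5.37 and 7.04 at DSi day 11 and was below background at day 0, at least 1.43-fold higher on 2 detected DSi arrays (adjusted p = 0.00037, and 0.035 without DSi replicate 3, with a fitted difference of 0.56 in place of 1.25, both against a signal below background). DSi day 11 replicate 3 was also the highest DSi array of its day for RSPO3 (8.03), WNT1, WNT3A, WNT8B and DKK1. RSPO3 was higher at day 11 than at day 0 by 1.64 in DSi (1.00 without DSi day 11 replicate 3) and 1.68 in NC (SE 0.34 each), with day 0 above background on 1 of 3 arrays. For RSPO2, with group means from 5.38 to 6.74, 0 of 12 comparisons passed, and 2 at limma's unadjusted p under 0.05.

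Markers of cell types moved with these differences. Between NC and DSi at day 11, 9 of 10 forebrain and eye field markers were lower and 0 higher, the mean over the list running from 8.91 to 9.31 on the DSi arrays and from 5.62 to 5.94 on the NC arrays. Of 8 neural crest markers 7 were higher (8.49 to 8.80 in NC, 5.57 to 6.32 in DSi), and of 8 neuron markers 8 were higher (9.74 to 10.54 in NC, 6.17 to 6.85 in DSi). Of 6 melanocyte markers 1 was higher and 3 were lower (6.42 to 6.99 in NC, 7.30 to 7.91 in DSi). Of all genes 11.1% differed between NC and DSi at day 11, 5.55% higher and 5.56% lower. Between BE and NC at day 11, 6 of 6 melanocyte markers were higher (10.43 to 10.85 in BE, 6.42 to 6.99 in NC), 7 of 8 neuron markers were lower (6.36 to 7.18 in BE), and 4 of 6 mesenchyme markers were higher (7.32 to 7.94 in BE, 5.98 to 6.14 in NC). Of 8 neural crest markers 2 were higher in BE than in NC and 3 were lower. Of all genes 8.75% differed between BE and NC at day 11, 4.68% higher and 4.07% lower. HAND1, of mesoderm, stood at 9.99 ± 1.06 in BE and 5.36 ± 0.57 in NC, while 6 of the 7 mesoderm markers were below background on all BE day 11 arrays. The part of these cell types in the WNT gene differences was not tested.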

How the data were processed

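WA09 cells were measured on 36 Illumina arrays in 12 groups of 3, taken from the labels. Per the file headers, the deposited probe table gave for each of 47323 probes a mean bead signal, a linear intensity not normalized between arrays, and a detection p-value against negative controls. The authors' processed log2 values, for 34687 gene symbols, came in another table. All 36 of its columns had a median of 6.72; set against the probe signals its scale was log2, not centred and in the direction of the signal. The submitters' processing notes name Partek; its settings and the slides were not given. Since probes carried numbers without gene names, each gene was tied to the probes whose mean signal gave the authors' values through 1 monotone function per array (33981 genes, 38 of the 41, within a root mean square of 0.002 on the log2 scale). Outside this tolerance were SFRP2 (0.168), SFRP1 (0.00269) and WNT8B (0.00267). Symbols were updated through RefSeq (GRCh38.p14), which updated 2815.

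Signals were corrected with limma's normexp (controls inferred from detection p-values, offset 16), quantile normalized and log2 transformed. Probes detected (p under 0.05) on 3 arrays or more, 29106 in all, entered the fit, and of several probes of 1 gene the brightest on average was used. A group-means model was fitted to all 36 arrays (limma 3.58.1, R 4.3.3; 24 residual degrees of freedom; the residual SD had a median of 0.269). Its moderated tests allowed for a variance trend and were two-sided, with Benjamini-Hochberg adjustment over 22849 genes in each of 12 comparisons. The offset compresses differences of dim genes. Where 1 group was below background on all arrays, a fold is "at least" the brighter mean over a floor, per dim array the larger of the lowest detected signal and that of the gene itself. The tests were also tried on simulated data with independent noise between arrays, and no result here rests on that trial. Python 3.11.15, pandas 2.3.3 and matplotlib 3.10.9 were used for the promoter search and plots.

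Members and lists were chosen with earlier results of these data known. By rule, the 10 genes of the set with the largest differences past the threshold in a comparison, and any that differed between NC and DSi on 3 or more days, were to be named with values. Some of these values are not printed above. Examples are FZD5 in NC against DSi at day 6 and FRZB at DSi day 11 against day 0. Another is WNT5A at DSi day 3 against day 0 (1.10), a call lost in 4 of 15 alternative fits. Up to 4 genes of each other list were given with values. Same-numbered arrays share a title code of unstated meaning. Their deviations from the group means correlated above 0.1 for every pair in NC against DSi at days 3, 6 and 11 and BE against NC at day 11 (0.113 to 0.309), and not for every pair elsewhere. Alternatives were the authors' processed values, 2 kinds of median scaling, no or a stricter detection filter, no background correction, the mean of probes, the compared groups alone, the replicate number as a block, and leaving out each array.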

Additional observations from a re-analysis of the deposited data

Results flagged for a closer look

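The difference between NC and DSi at day 11 was tested against that at day 3, which gives the change of the difference with time (limma, 36 arrays, adjusted over all genes). It passed for 15 of the 37 genes tested.

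Among the ligands the fitted change was -4.36 for WNT5B (SE 0.33, adjusted p = 8.85e-14) and -3.37 for WNT7B (SE 0.38, adjusted p = 7.04e-09). Both were below background on all NC day 11 arrays, so these fitted values are no measured sizes; at day 11 NC was at least 18.6-fold and 8.37-fold lower, and at day 3 the fitted differences were -0.25 (WNT5B, below background in both conditions) and -0.02. In the other direction WNT3A changed by 3.50 (SE 0.52, adjusted p = 3.16e-06), WNT5A by 2.01 (SE 0.50, adjusted p = 0.00677) and WNT1 by 1.74 (SE 0.49, adjusted p = 0.0223), where WNT3A and WNT1 were below background in both conditions at day 3. The WNT5A change did not pass without NC day 3 replicate 1 (adjusted p = 0.0606) or DSi day 11 replicate 1 (0.0552), and the WNT1 change did not pass without DSi day 11 replicate 1 (0.0947) or 2 (0.125) or NC day 11 replicate 1 (0.116). It also missed the threshold with the authors' processed values (0.0694), median scaling (0.135) and the compared groups alone (0.0981), and the WNT5A change with the latter (0.079).

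The antagonists SFRP2 (-3.44, SE 0.32), SFRP1 (-2.64, SE 0.27) and FRZB (-2.44, SE 0.36) changed downward, with a largest adjusted p of 2.41e-06. The Frizzled genes FZD7 (-1.92), FZD2 (-1.82), FZD8 (-1.71), FZD9 (-1.50) and FZD4 (-1.45) did so too, with a largest adjusted p of 0.0111 (FZD2 had 0.051 with median scaling over all probes). FZD7 and FZD9 stood above 0 at day 3 (0.55 and 0.45, not past the threshold) and below 0 at day 11 (-1.37 and -1.05). The FZD9 change did not pass without NC day 3 replicate 1 (0.0645), DSi day 3 replicate 2 (0.0614) or NC day 11 replicate 3 (0.0618). Of the other receptors ROR2 changed by -1.58 (SE 0.35, adjusted p = 0.00181) and ROR1 by 1.10 (SE 0.29, adjusted p = 0.0116; 0.0587 without NC day 11 replicate 1 and 0.0579 without DSi day 3 replicate 3).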

How the results depend on the processing

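The settings were scored for 101 single-gene differences, the 10 largest past the threshold in each comparison, or all where fewer passed. Of these, 85 kept their direction and their side of the threshold with each array left out and under those of the 9 other settings in which the gene was tested. The threshold was lost somewhere for 16, and 0 reversed. WNT3, scored at day 1 and at DSi day 3, was not tested under the stricter detection filter. Other named differences were not among the 101. Some of those were lost without single arrays, as for RSPO3 at day 8 and WNT10A and FZD9 at day 11 in NC against DSi. The numbers of genes that differed, of the set and of all, stayed within 1.5 times, except as follows. With median scaling over all probes, chosen after seeing the data, 0 of the set and 49 of all genes differed between NC and DSi at day 3, 604 of all at day 6 and 1569 at day 11; between BE and NC 281 of all differed at day 8 and 9 of the set at day 11; and the change of the NC to DSi difference passed for 785 of all. With the compared groups alone, 0 of the set and 42 of all differed at day 3, 1683 of all at day 11, and 807 for the change. The cause was not tested. Leaving out 1 array gave 2 to 4 of the set and 610 to 819 of all at day 1; 0 to 2 and 64 to 163 for NC against DSi at day 3; 3 to 5 and 254 to 313 for BE against NC at day 8; and 8 to 14 of the set at day 11. Median scaling moved the median of all genes by up to 0.27 (day 1) and 0.18 (DSi day 3), and to 0.16 for BE against NC at day 8 and -0.11 at day 11; over all probes it stood at -0.16 at day 1. At day 1, 69.5% of all calls were higher with median scaling. With the replicate number as a block, 1, 13, 19 and 18 of the set differed between NC and DSi at days 3, 6, 8 and 11, and 7 and 15 between BE and NC at days 8 and 11. The block ended 1 call (WNT6 at BE day 11 against day 0, adjusted p from 0.0485 to 0.0511) and added DKK3 for BE against NC at day 8 (0.0492) and WNT5A at day 11. A slide block was not run, since no slide is given. Signals near background bound the folds of the dim ligands.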
